A study of Caenorhabditis elegans with 3 samples.

Results

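Of the 1997 regions that EGL-27 occupied reproducibly in Caenorhabditis elegans larvae, 248 (12.4%) had a summit at most 200 bp away from where a protein-coding gene begins, in a promoter that belonged to that gene alone. These 1997 regions are the set that the authors kept by the irreproducible discovery rate (IDR), which compares the ranks of regions between replicates, and are called the reproducible set. The 248 were chosen by position only. A region qualified when exactly 1 protein-coding gene had its 5' end no more than 1000 bp downstream or 200 bp upstream of the summit, and when the summit lay at most 200 bp from that end on either side. The 248 peaks belonged to 248 different genes, 1.24% of 19973 protein-coding genes, so no gene carried 2 of them. The other classes of the same set were 403 peaks in the promoter of 1 gene but further upstream (20.2%), 279 in promoters shared by 2 or more genes (14%) and 1067 outside promoters (53.4%).

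Binding was measured in whole L2 larvae, with the sexes pooled, by sequencing of immunoprecipitated chromatin (ChIP-seq), in 3 biological replicates that form 1 group. The worms were of strain OP177, with the genotype unc-119(ed3) III; wgIs177, in which wgIs177 is a transgene for EGL-27 with GFP and FLAG at its C-terminus. Every sample carried both the transgene and the unc-119 allele, while the sources used here do not name the promoter that drives the tagged protein or the number of independent lines. Because whole animals were used, binding in few cells and weak binding in many cells cannot be told apart.

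EGL-27 is a worm homologue of the metastasis-associated (MTA) proteins, subunits of the NuRD nucleosome remodelling and histone deacetylase complex, and has a GATA-type zinc finger. In worms it is known for roles in cell polarity, patterning and stress responses. The messenger RNAs of many C. elegans genes are trans-spliced to a short leader, so that the annotated 5' end of a gene often marks the splice site of the leader, and transcription begins upstream of it.

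The letters under the summits are shown first, because an 8-base element, CTGCGTCT, recurred at these peaks. The 6 windows below are from the strongest of the peaks singled out by the naming rule given in the methods that carried it within 50 bp of the summit and overlapped annotated exons by at most 30 bases. Each is 101 bases centred on the summit, written 5' to 3' along the strand of the gene, from the RefSeq WBcel235 genome (the ce11 assembly), with the element in capitals on whichever strand it was read.
ntl-11, chrIV:15471587-15471687, minus strand: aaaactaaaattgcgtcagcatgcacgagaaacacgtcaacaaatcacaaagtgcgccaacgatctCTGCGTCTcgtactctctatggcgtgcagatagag
F28C10.3, chrX:535884-535984, minus strand: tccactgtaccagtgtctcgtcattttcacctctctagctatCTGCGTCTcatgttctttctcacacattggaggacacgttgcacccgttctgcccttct
C34C12.8, chrIII:3460206-3460306, plus strand: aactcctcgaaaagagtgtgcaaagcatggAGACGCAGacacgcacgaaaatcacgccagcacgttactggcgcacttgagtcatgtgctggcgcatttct
hsp-3, chrX:6092123-6092223, minus strand: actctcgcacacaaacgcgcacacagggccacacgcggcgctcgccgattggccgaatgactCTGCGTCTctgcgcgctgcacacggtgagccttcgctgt
nhr-58, chrV:532143-532243, plus strand: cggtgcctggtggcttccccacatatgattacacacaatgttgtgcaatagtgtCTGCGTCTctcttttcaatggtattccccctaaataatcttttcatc
sec-3, chrX:3099966-3100066, minus strand: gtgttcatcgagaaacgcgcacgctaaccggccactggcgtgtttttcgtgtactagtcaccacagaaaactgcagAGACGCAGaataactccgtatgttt

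For contrast, the windows of the 3 strongest peaks without a copy of the element are shown, cut in the same way. Each held the letters TATAAA of a TATA box, which are in capitals. That they share them was seen after the windows were read, and TATAAA was in 3 of the 10 strongest peaks.
cdc-48.1, chrII:10563523-10563623, minus strand: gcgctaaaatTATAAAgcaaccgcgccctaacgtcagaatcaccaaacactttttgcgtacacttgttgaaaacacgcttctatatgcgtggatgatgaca
his-37, chrV:9546976-9547076, plus strand: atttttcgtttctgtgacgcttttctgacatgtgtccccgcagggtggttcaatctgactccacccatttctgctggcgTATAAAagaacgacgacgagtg
tos-1, chrV:9344284-9344384, minus strand: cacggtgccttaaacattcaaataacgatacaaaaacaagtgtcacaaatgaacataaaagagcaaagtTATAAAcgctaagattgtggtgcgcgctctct

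The summits lay upstream of the 5' end far more often than downstream of it. Of the 248, 213 (85.9%) were upstream and 35 were at the 5' end or downstream, with a median position of -124 bp (range -200 to 192 bp). In bins of 50 bp, 69 summits lay 200 to 150 bp upstream and 75 lay 150 to 100 bp upstream, followed by 39 and then 30 in the last bin before the 5' end. In the first 50 bp downstream there were 18, and in the 3 bins after it 3, 9 and 5. The fullest bins of the whole 1200-bp window were thus the pair 200 to 100 bp upstream, and the bin just beyond the 200-bp limit held 53. The replicates' own lists gave similar positions with more scatter. Among the 1997 strongest regions of each replicate, as many as there are peaks in the reproducible set, the class made up 9.41% in replicate 1, 12% in replicate 2 and 12.5% in replicate 3, a mean of 11.3% ± 1.64 (SD, n = 3). Their median positions were -62.5, -108 and -108 bp, and 66%, 87.9% and 81.1% of them were upstream. Replicate 1 stood apart from the others in both measures, with more of its summits close to the 5' end or past it.

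**Figure D1:**
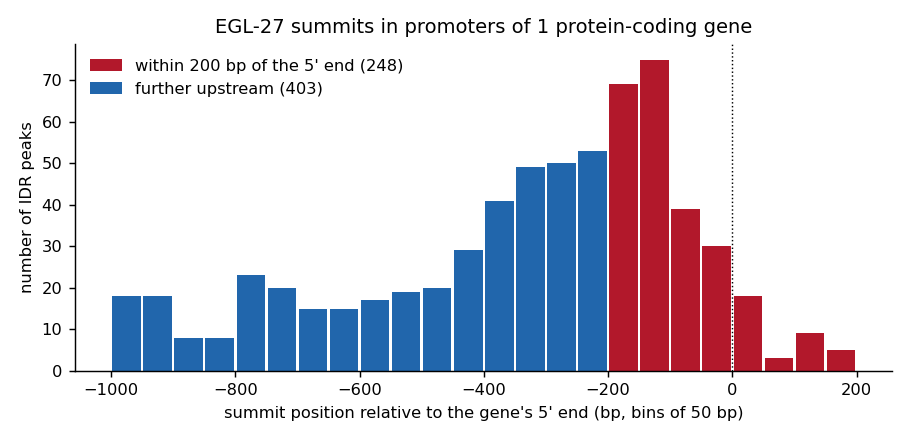
Number of IDR peaks (vertical axis) by position of the summit relative to the gene's 5' end, in bins of 50 bp, for promoters of 1 protein-coding gene. Bars within 200 bp of the 5' end are red and those further upstream blue; the counts are highest in the bins 200 to 100 bp upstream (69 and 75 peaks) and drop to 18 in the first bin downstream.

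Most of the summits stood in sequence between genes, just before the coding sequence began. By the annotation of Ensembl release 115, 198 summits (79.8%) lay between protein-coding genes, 24 (9.68%) in a 5' UTR exon of the gene, 15 (6.05%) inside another protein-coding gene, 7 (2.82%) in an intron of the gene and 4 (1.61%) in its coding sequence. Measured from the first coding base, the median summit was at -178.5 bp (interquartile range -261.5 to -135 bp), and 156 of 248 summits (62.9%) were within 200 bp of it. The median was -188 bp for the 144 peaks at 101 to 200 bp upstream of the 5' end, -145 bp for the 69 peaks at 1 to 100 bp upstream and -140 bp for the 35 at or past the 5' end. The stretch between the 5' end and the first coding base lengthened across these zones, with medians of 18.5, 98 and 188 bp.

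The genes with these peaks had a longer stretch between 5' end and coding sequence than genes bound further upstream. Its median was 48.5 bp (interquartile range 10 to 168 bp) in the 248 genes, against 15 bp in the 393 genes bound further upstream, 23.5 bp in the genes nearest to peaks in shared promoters and 15 bp in all protein-coding genes. It exceeded 100 bp in 37.1% of the 248 genes, against 15.3% of genes bound further upstream and 17.8% of all protein-coding genes. The annotated 5' end enters both the choice of the peaks and this distance. A summit at a given distance before the coding sequence is nearer to the 5' end the longer this stretch is. The direction of the difference is thus in part set by the choice, and the comparison over replicates cannot separate that part. In the replicates' own strongest regions the median was 34.5, 46 and 43 bp close to the 5' end, against 13.5, 16 and 12 bp further upstream, and the values did not overlap. The difference was 27.3 ± 5.51 bp (SD, n = 3), higher in 3 of 3 replicates (exact sign-flip test over replicates, two-sided, p = 0.25, adjusted p = 0.30). This p is the smallest that 3 replicates can give, so no comparison of this kind could reach 0.05. The adjusted values cover 12 comparisons over replicates, 6 measures against 2 classes, and leave out the 3 comparisons of signal.

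**Figure D2:**
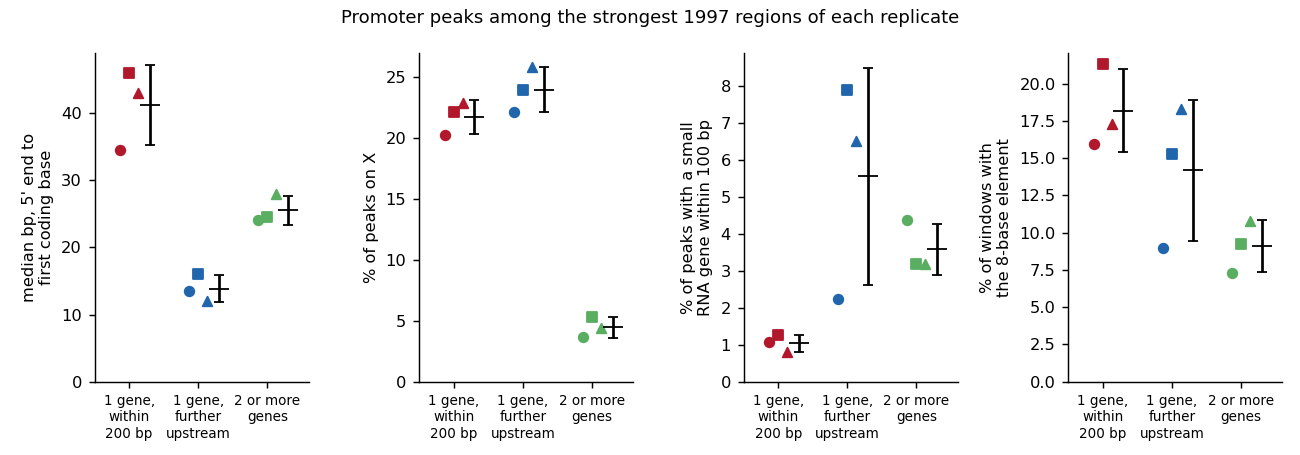
Measures of promoter peaks among the strongest 1997 regions of each replicate, by class: median distance between the gene's 5' end and first coding base, share on the X chromosome, share with a gene of a small RNA within 100 bp and share with the 8-base element. Circles, squares and triangles are replicates 1, 2 and 3, and the black marks are mean ± SD (n = 3). Peaks within 200 bp of the 5' end of 1 gene have the longest distances (34.5 to 46 bp) and the lowest shares near small RNA genes. The annotated 5' end enters both the classes and the distances, so the direction in the first panel is in part set by the choice.

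Peaks close to the 5' end were seldom near genes of small RNAs. Within 100 bp of the summit, 3 of 248 peaks (1.21%) had a gene of a transfer RNA (1) or small nucleolar RNA (2), against 36 of 403 peaks further upstream (8.93%), of which 11 had a tRNA, 14 a snoRNA and 11 a small nuclear RNA gene. In promoters of 2 or more genes the share was 3.23%, and outside promoters it was 12.1%. By replicate, 1.06%, 1.26% and 0.803% of the strongest regions close to the 5' end were near such a gene, against 2.24%, 7.90% and 6.53% of those further upstream. The difference was -4.52 ± 2.93 percentage points (SD, n = 3), lower in 3 of 3 replicates (exact sign-flip test, two-sided, p = 0.25, adjusted p = 0.30). Genes annotated as ncRNA, a class without a named function, were within 100 bp of 17 peaks (6.85%), against 76 further upstream (18.9%).

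The class had about as large a share on the X chromosome as peaks further upstream and outside promoters, and a larger one than peaks in shared promoters. There were 64 of the 248 peaks on X (25.8%), which is 2.34% of the 2731 genes of X, while on the autosomes the share of genes ran between 0.928% on II and 1.33% on III. Peaks further upstream were on X in 24.3% of cases, those outside promoters in 25.4%, those in promoters of 2 or more genes in 5.02% and all 1997 peaks in 22.4%. In the replicates' strongest regions the share on X was 20.2%, 22.2% and 22.9% close to the 5' end, against 3.65%, 5.32% and 4.38% in promoters of 2 or more genes, a difference of 17.3 ± 1.05 percentage points (SD, n = 3; exact sign-flip test, two-sided, p = 0.25, adjusted p = 0.30). Against the peaks further upstream the difference was -2.21 ± 0.649 points, lower in 3 of 3 replicates, with the same p-values. The spacing of genes, which differs between chromosomes, bears on how many promoters are shared, and its part in the X shares was not tested. Around the 248 genes, the next gene upstream was at a median of 1524.5 bp, against 2006 bp for genes bound further upstream, and it pointed the same way in 49.6%, against 55.8%.

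The signal of these peaks differed from that of other promoter peaks by less than the spread between replicates. The signal is the value the authors gave each region. Its median in the pooled set was 49.6 (range 34.8 to 268) for the 248 peaks, against 53.5 further upstream, 54.3 in promoters of 2 or more genes and 49.7 outside promoters. Within the replicates' lists the median signal was 6.56, 21.2 and 25.8 close to the 5' end, against 5.86, 23.4 and 27.1 further upstream. A median covers only the peaks listed in that replicate. In replicate 1 these were 146 of 248 close to the 5' end and 241 of 403 further upstream. In replicate 2 they were 247 and 399, and in replicate 3 247 and 401. The median was higher close to the 5' end in replicate 1 and lower in replicates 2 and 3. The log2 ratios were 0.16, -0.14 and -0.07, with a mean of -0.02 ± 0.16 (SD, n = 3; exact sign-flip test, two-sided, p = 1). Against promoters of 2 or more genes the mean log2 ratio was -0.05 ± 0.18 (n = 3, exact sign-flip test, p = 0.75), and against peaks outside promoters it was 0.01 ± 0.10 (n = 3, exact sign-flip test, p = 1). These 3 p-values are unadjusted. The class made up 12.4% of all peaks and held 1 of the 10 strongest and 6 of the strongest 100. Of its peaks, 47.6% were in the upper 50% of all peaks by signal. That share was 53.8% further upstream, 55.9% in promoters of 2 or more genes and 47.6% outside promoters.

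Replicates recovered the class at rates close to those of the set as a whole. Of the 248 peaks, 63 (25.4%, 95% Wilson interval 20.4 to 31.2%, for counting error only) overlapped the strongest regions of every replicate, against 25.0% of all 1997 peaks. Replicate 1 recovered 82 (33.1%, against 32.0% of all peaks), replicate 2 186 (75%, against 77.7%) and replicate 3 188 (75.8%, against 79.2%). The whole lists hold 13245 regions for replicate 1 and 30000 each for replicates 2 and 3. In them 146, 247 and 247 of the 248 peaks were found, against 1200, 1987 and 1990 of all 1997 peaks. All 3 lists held 144 of the 248 (58.1%), against 1192 of all 1997 (59.7%). The strongest region of a replicate that overlapped a peak had its summit at a median of 40 bp from it in replicate 1, 13 bp in replicate 2 and 12 bp in replicate 3. Of the 248, 8 peaks overlapped the strongest regions of none of the replicates, a count that was not made over all 1997 peaks.

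The strongest peak of the class stood at -166 bp from cdc-48.1, which encodes an AAA ATPase that extracts ubiquitinated proteins, at chrII:10563452-10563703. Its signal was 17.1 in replicate 1, 115 in replicate 2 and 140.0 in replicate 3, and 268 in the pooled set, where it was the seventh strongest peak of all. It ranked 71, 6 and 8 in the replicates' lists, a mean rank of 28.3 ± 37 (SD, n = 3), so it was near the top in each. The next was at -79 bp from his-37, a gene of histone H4, at chrV:9546906-9547131, with a signal of 17.7, 53.0 and 83.8 in replicates 1, 2 and 3 and a mean rank of 81.3 ± 39.9 (SD, n = 3). That of ntl-11, a subunit of the CCR4-NOT deadenylase complex, followed at -142 bp, with 22.4, 50.2 and 70.6 in the 3 replicates and a mean rank of 86.3 ± 61.5 (SD, n = 3). In replicate 1, ntl-11 had a higher signal than cdc-48.1, and in replicates 2 and 3 a lower one.

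Next in the pooled signal came tos-1 (146, at -131 bp), cmtr-1, a methyltransferase of the messenger RNA cap (138, at -181 bp), Y39E4B.6 (135, at -86 bp) and cox-5B, a subunit of cytochrome c oxidase (128, at -55 bp). The strongest 10 closed with F28C10.3 (123), F48A11.4 (122) and C34C12.8 (121). The Y39E4B.6 peak had signals of 3.22, 70.6 and 61.9 in replicates 1, 2 and 3, where it ranked 6660, 57 and 131. The other 9 overlapped the strongest regions of every replicate. F28C10.3, with a mean rank of 119 ± 85.8 (SD, n = 3), and tos-1, with 124 ± 66.3 (SD, n = 3), completed the 5 best mean ranks.

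**Figure D3:**
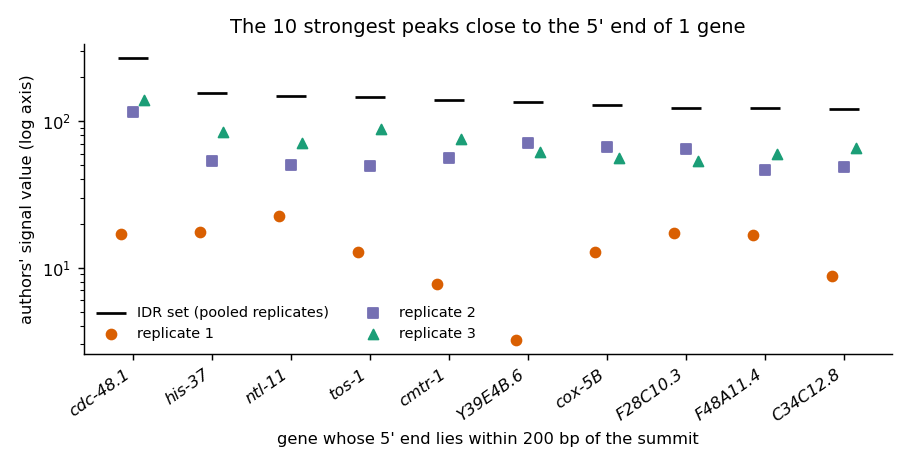
Signal given by the authors (logarithmic vertical axis) for the 10 strongest peaks within 200 bp of the 5' end of 1 gene, in the pooled reproducible set (bars) and in each replicate's list (symbols). Within replicate 1 the lowest of the 10 is Y39E4B.6 (3.22) and the highest ntl-11 (22.4), while cdc-48.1 is highest within replicates 2 and 3; the level of replicate 1 is lower over the whole class, so heights are to be read within a replicate.

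When the 31 gene lists were joined into 8 broad roles, protein folding and degradation had the highest share of members, with a peak of this class at 10 of 196 genes (5.10%), against 1.24% of all protein-coding genes. Most of these were chaperones (7.14%), while the proteasome (3.03%) and ubiquitin (3.08%) lists had lower shares, and among single lists that of the 10 NuRD and MEC genes was higher, from 1 gene. Among chaperones and their partners there were 7 of 98, against 5 with a peak further upstream and 6 nearest to a peak in a shared promoter. They were hsp-3, an Hsp70 chaperone of the endoplasmic reticulum, sti-1, a co-chaperone that links Hsp70 and Hsp90, the protein disulphide isomerases pdi-2 and pdi-6, the cyclophilins cyn-1 and cyn-3 and the prefoldin subunit pfd-3. The list did not hold the co-chaperone genes bag-1 (96.1), unc-23 (64.0) and aipl-1 (40.0), also members, so the chaperone shares are those of the listed genes. The hsp-3 peak, at -49 bp, had a signal of 11.0, 40.6 and 57.0 in replicates 1, 2 and 3. The pdi-2 peak, at -30 bp, had 8.39, 23.4 and 30.2, and the pdi-6 peak, at 9 bp, had 6.67, 17.8 and 37.1. These 3, all on X, overlapped the strongest regions of every replicate, and the other 4 of the 7 listed did not. With 1 replicate left out, only peaks that overlapped the strongest regions of both others were kept, which favours strong peaks. The share of chaperone genes was then 3.06% without replicate 1 or replicate 2 and 4.08% without replicate 3, against 7.14% in the full class. The class itself shrank to 140, 68 and 71 peaks. The sti-1 peak had 12.2, 30.2 and 16.4, and the pfd-3 peak was among the 3 weakest of the class, with a pooled signal of 34.8. The proteasome had 1 of 33 genes, the lid deubiquitinase rpn-11 (36.7, at 10 bp), and the ubiquitin list had cdc-48.1 and ufd-3 among 65.

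Over the whole set, 403 promoter peaks were further upstream and 279 in shared promoters, against 248 in this class. Likewise, peaks of the other promoter classes were more frequent at cytosolic ribosomal protein genes. Of 82 such genes, 2 (2.44%) had a peak of this class, rpl-24.2 (76.4, at -148 bp) and ubl-1, a ubiquitin-like protein fused to a ribosomal protein (57.3, at -185 bp), against 9 with a peak further upstream and 15 nearest to a peak in a shared promoter. Translation factors had 0 of 43, against 4 further upstream and 6 in shared promoters, and tRNA synthetases had 1 of 31, vars-1 (35.4). Of 70 mitochondrial ribosomal protein genes 3 were members, led by mrpl-28 (113, at -98 bp), which ranked 3291, 119 and 420 in replicates 1, 2 and 3 with signals of 4.63, 54.2 and 41.8. The respiratory chain and ATP synthase list had cox-5B and nduf-11 among 52 genes. It did not hold ndus-8, a respiratory chain subunit gene that was a member (57.1, at -153 bp) and overlapped the strongest regions of every replicate.

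Members made up 6 of 188 listed RNA genes (3.19%) and 7 of 185 listed chromatin and cell cycle genes (3.78%), against 1.24% of all protein-coding genes, with 1 or 2 in each list. The transcription machinery had the Mediator subunit genes mdt-1.2 (91.6, at -133 bp) and mdt-22 (49.1) among 71, both found in the strongest regions of every replicate. Nuclear pore and transport genes had npp-8 (40.6) and npp-20 among 40. The splicing and RNA-binding list had the SR protein gene rsp-6 (39.0) and hrpa-1 among 77. That list is incomplete. Splicing genes such as smu-1 (78.5), snrp-3 (62.3), plrg-1 (59.2) and usp-39 (43.5) were members with stronger peaks but were in no list. The histone list had his-37 and the linker histone gene his-24 among 72, and did not hold the histone H1-like gene hil-7, also a member (46.3). Histone modifiers had set-20 (73.9) and met-1, a histone H3 methyltransferase (71.1), among 61. The cyclin-dependent kinase genes cdk-5 (94.1) and cdk-7 (40.2) were the 2 members of the cell cycle list. Of 10 genes of NuRD, the complex in which MTA homologues act, and of the related MEC complex, 1 was a member, dcp-66, the p66 subunit gene, at -148 bp. It was not listed in replicate 1 and had signals of 22.5 and 28.6 in replicates 2 and 3.

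Of 269 nuclear hormone receptor genes, 6 were members (2.23%). The strongest, nhr-58, had 12.6, 33.7 and 47.8 in replicates 1, 2 and 3, and was the 1 among the 6 found in the strongest regions of every replicate. The summits closest to a 5' end were those of nhr-50, at -1 bp, and rbm-39, an RNA-binding protein gene, at 1 bp, followed by that of hst-2, a heparan sulphate sulphotransferase gene, at 3 bp. The hst-2 peak had 13.8, 49.1 and 35.8 in the 3 replicates. The heterochronic gene lin-14, a regulator of early larval fates, had a peak at -152 bp with 9.09, 18.7 and 37.9, and 5 more peaks in its gene and upstream sequence, the highest number for any of the 248. In all, 21 of the 248 genes (8.47%) had a further peak, against 60 (14.9%) of the peaks further upstream. Vesicle traffic genes had sec-3, an exocyst subunit gene (85.4), sec-24.1 and vps-37 among 93. Among single regulators, the ceh homeobox list had ceh-39 (36.5) of 63 genes, and Wnt, Notch and TGF-beta signalling had sma-2, a Smad gene (37.9), of 39.

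The listed genes of large sensory, immune and structural families were nearly without such peaks, with 2 of 2314 (0.0864%). Those were the collagen gene col-96 (50.6, of 161) and the cytochrome P450 gene cyp-13A2 (87.7, of 141). On their lists, chemoreceptors had 0 of 1310, F-box genes 0 of 322, C-type lectins 0 of 240 and neuropeptides 0 of 140. Between 1 and 3 genes of each of these lists had a peak further upstream. The F-box list did not hold fbxl-1 (42.9), fbxl-2 (89.8) and sel-10 (44.8), F-box protein genes that were members. Across the 31 lists, 22 had a member, and 202 of the 248 genes were in no list. A sequence name was all that 82 of the 248 had. The lists do not hold every gene of a family or role, so the counts are those of the listed genes. No test of a list was made. The 200-bp limit did not fall at a gap in the positions. Just inside it were plrg-1 and vps-37, both at -200 bp, and daf-19, an RFX transcription factor gene, at -199 bp, with pooled signals of 59.2, 49.3 and 50.1. Just outside it were pab-2 at -201 bp (75.3), ucr-2.2 at -203 bp (55.2) and mep-1 at -205 bp (34.8). The weakest members, pfd-3, F31F7.1 and B0395.3, each had a signal of 34.8, near the lowest value of the reproducible set.

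The sequence under the summits was richer in G+C than that at the 5' ends of genes in general, but not than that under other EGL-27 summits. In 201-bp windows centred on the summit the median was 42.3% in the 248 peaks, against 44.8% further upstream, 42.3% in promoters of 2 or more genes, 44.8% outside promoters and 33.3% at the 5' ends of all protein-coding genes, whose windows were centred at -124 bp, the median position of the class. Mean G+C content along the class reached 49.9% in the 25 bp just past the summit. It was 35.1% at 125 to 150 bp before the summit and 35.5% at 100 to 125 bp past it, then 40.1% at 200 to 225 bp past it, where coding sequence begins at many of the genes. In the replicates' own strongest regions the median was 39.3%, 41.3% and 41.8%, against 39.8%, 43.8% and 44.8% further upstream, a difference of -1.99 ± 1.32 percentage points (SD, n = 3), lower in 3 of 3 replicates (exact sign-flip test, two-sided, p = 0.25, adjusted p = 0.30).

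**Figure D4:**
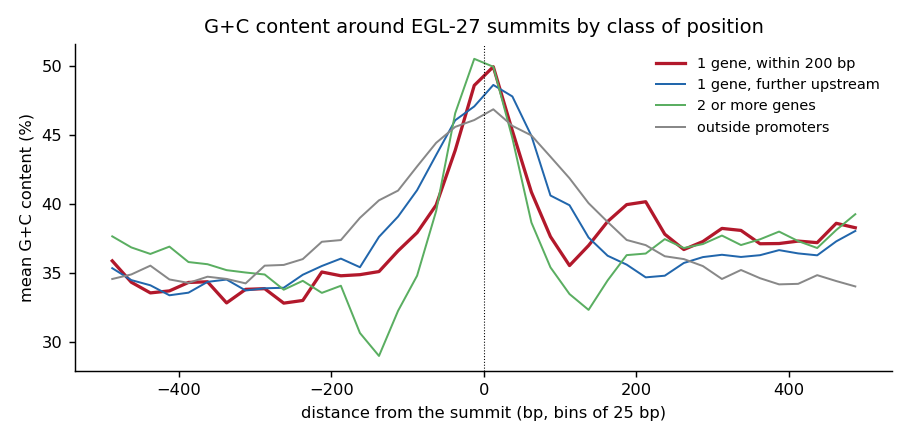
Mean G+C content (per cent) in bins of 25 bp by distance from the summit, for peaks within 200 bp of the 5' end of 1 gene (red), further upstream (blue), in promoters of 2 or more genes (green) and outside promoters (grey). The class close to the 5' end has a peak of 49.9% at the summit and a second, lower rise to 40.1% at 200 to 225 bp past it.

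The 8-base element CTGCGTCT, read on both strands, was in 45 of the 248 windows (18.1%). It was in 17.9% of windows further upstream, 8.96% in promoters of 2 or more genes, 18% outside promoters, 16.7% of all reproducible peaks and 2.84% of the 5' ends of all protein-coding genes. The element was thus as frequent at these peaks as in most of the set and 6.38 times as frequent as at 5' ends in general. In windows of the same length centred 500 bp to each side of the 248 summits it occurred in 0 of 496. The windows differ in G+C content as given above, and its part in these shares was not tested. In the replicates' strongest regions the share was 16%, 21.3% and 17.3% close to the 5' end, against 7.30%, 9.22% and 10.8% in promoters of 2 or more genes, a difference of 9.10 ± 2.83 percentage points (SD, n = 3), higher in 3 of 3 replicates (exact sign-flip test, two-sided, p = 0.25, adjusted p = 0.30). Against the peaks further upstream the difference was 4.0 ± 4.36 points, higher in 2 of 3 (exact sign-flip test, p = 0.50, adjusted p = 0.50).

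The element lay close to the summit. Its median distance was 24.5 bp, and 25 of the 45 (55.6%) were within 25 bp, against 157 of 568 (27.6%) for the windows at all 5' ends, measured from their centre. It ran in the direction of the gene in 29 peaks and against it in 16. The base before it was T in 88.9% of the 45 peaks and the base after it was C in 91.1%, both of which stand beside it in the 6 windows shown above. Peaks of the class with the element had a median signal of 52.2, against 49.5 without it, and 3 of the 10 strongest carried it. The same medians were 55.6 and 52.3 further upstream, 80.8 and 53.6 in promoters of 2 or more genes and 60.4 and 47.9 outside promoters. Besides the genes shown above, the element was at hst-2, sti-1, dcp-66, vps-37, cdk-7 and pfd-3, and at jun-1, which encodes a bZIP factor, and atfs-1, a bZIP factor of the mitochondrial stress response, these last 2 chosen after their values were seen.

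**Figure D5:**
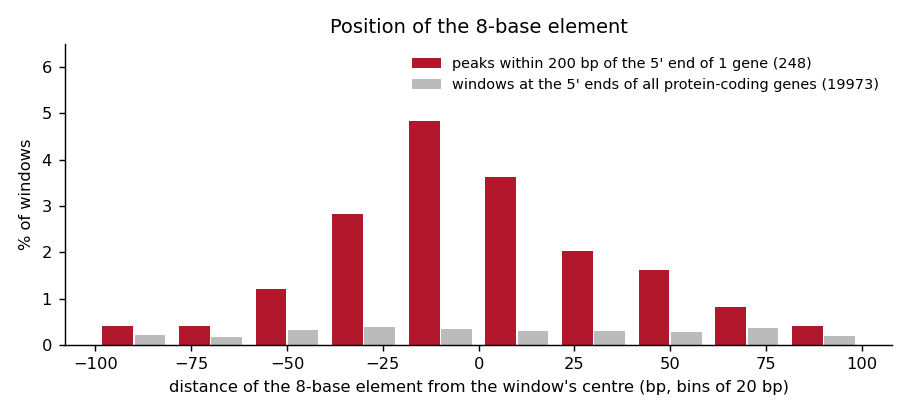
Share of windows (per cent) with the 8-base element by its distance from the centre of the window, in bins of 20 bp, for the 248 peaks within 200 bp of the 5' end of 1 gene (red, centred on the summit) and for windows at the 5' ends of all 19973 protein-coding genes (grey). In the red bars the share reaches 4.84% in the 20 bp before the summit, where the grey bar is at 0.340%.

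The GA-rich hexamer GAGAGA, read on both strands, was in 112 windows (45.2%), against 46.7% further upstream, 29.4% in promoters of 2 or more genes, 56.4% outside promoters, 49.3% of all reproducible peaks and 16.3% of all 5' ends. It was in 9.88% of the windows 500 bp to each side. By replicate it was in 22.9%, 44.4% and 43.4% of the strongest regions close to the 5' end, so replicate 1 lay below the others and nearer to the share at all 5' ends. Both the element and the hexamer were in 30 peaks, in 9 of which they shared letters, 15 had the element alone, 82 the hexamer alone and 121 had neither. The GATA-type sites TGATAA and AGATAA were in 16.5% and 12.1% of the 248 windows, against 22.7% and 15.6% at all 5' ends. In the other classes of peaks they were in 10.4 to 17.4% and 8.6 to 14.2%. Of the other sites, read on both strands in the same windows, the E-box CACGTG was in 10.1% (4.29% at all 5' ends), the site TGACGTCA in 3.63% (1.04%), CCGCCC in 11.7% (6.05%) and CCAAT in 32.7% (32.4%). Across the other classes of peaks, CACGTG was in 5.73 to 10.7%, TGACGTCA in 1.43 to 2.48%, CCGCCC in 7.97 to 11.1% and CCAAT in 27.6 to 31.2%. The TATA box letters TATAAA were in 15.7%, against 29.3% at all 5' ends. They were in 10.4% further upstream, 11.8% in promoters of 2 or more genes and 10.5% outside promoters. The 39 peaks of the class that had them had a median signal of 54.3, against 49.3 without them. The letters of a splice acceptor, TTTTCAG, were in 10.5%, against 5.46% further upstream and 16% at all 5' ends. The shares of A+T-rich sites move with base composition, and that of the class was given above. A match is a description of the letters and not of a bound factor.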

How the data were processed

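Tagged EGL-27 was profiled by ChIP-seq in 3 biological replicates, which per the labels form 1 group. Per the file headers, the authors called candidate regions, background included, in every replicate and in the pooled replicates, each with a control (not used here), and a set kept at an optimal threshold of the irreproducible discovery rate (IDR). For the caller, the aligner and the threshold: not given in the sources used here. Each region has a signal that the authors deposited without naming its scale, a −log10 q-value, likewise deposited and not used here, and a summit offset. Signals were compared between regions of the same list, and those of different replicates are given side by side without a common scale. The files used hold no read counts, so the depth is unknown.

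The ce11 lists were used, and every region lay inside the chromosomes of the RefSeq WBcel235 genome, the same assembly, from which sequence was read. The ce10 lists were not used. Genes came from Ensembl release 115. A peak's value in a replicate is that of the strongest region that overlapped it by at least 1 bp, a choice made after values by largest overlap had been seen. Peaks without such a region were left out of that replicate's medians. Comparisons over replicates used exact two-sided sign flips (smallest p 0.25), and peaks were not taken as replicates. Analyses used Python 3.11.15, pandas 2.3.3, numpy 2.4.6, scipy 1.17.1 and matplotlib 3.10.9, and were tested on simulated data. The members, gene lists, motifs and tests were chosen with earlier results of these data known, and the 12 comparisons of classes over replicates were added after seeing the data. Named genes are the 10 strongest members, the strongest of each list (all members where few), the 5 of best mean rank, the 3 nearest the 5' end, 3 on each side of the 200-bp limit and the 3 weakest.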

Additional observations from a re-analysis of the deposited data

How the results depend on the processing

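The share of peaks in the class depended on its limits. It was 4.51% (90 peaks) with a limit of 100 bp, 17.6% (351 peaks) with 300 bp and 14.4% (288 peaks) with the 5' ends of all transcripts, against 12.4%. The 3 signal comparisons changed sign in several settings, with none near a call. Against peaks further upstream the mean log2 ratio was 0.0083 with the 100-bp limit, 0.0390 among the stronger 50% of peaks and -0.0368 to 0.0543 with 1 replicate left out. It was 0.0020 with the replicates' regions of largest overlap, in place of the strongest that overlapped, an alternative added after seeing the data. Against promoters of 2 or more genes it was 0.0492 among the stronger 50% and -0.0682 to 0.0122 with 1 replicate left out. Against peaks outside promoters it was -0.0231 among peaks in the strongest regions of every replicate. The share of members in the strongest regions of every replicate was 50% among the stronger 50% of peaks. With whole lists in place of the strongest regions it was 58.1%. Exact p in these signal comparisons was 0.75 or 1, and the cause of the sign changes was not tested. Leaving out a replicate kept the peaks that overlapped the strongest regions of both others (140, 68 and 71 members without replicates 1, 2 and 3). Their median pooled signal was 64.5, 78.6 and 78.4, against 49.6 in the full class, so these settings favour strong peaks. The element was in 20 to 23.9% of these members. It was in 14.9% of the full class with windows of 50 bp on each side and in 23.8% of the 63 members in the strongest regions of every replicate. The GA hexamer was in 26.2% with the narrower windows. The listed chaperone genes had members in 3.06 to 4.08% with 1 replicate left out, against 7.14%. The share of summits upstream of the 5' end changed by less than its spread between replicates in the 9 alternatives run. No paired analysis was possible because the series has 1 group, so no replicate block between groups could be fitted; classes of peaks were compared within each replicate. With 3 replicates and no read counts, differences smaller than the spread between replicates cannot be resolved.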
